A study of Rattus norvegicus with 6 samples.

Results

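The 113 rat miRNAs analysed here are the mature miRNAs whose number is 3000 or higher, such as miR-3594-3p and miR-6216. They were chosen by name alone from a table of 753 mature miRNAs, in which 621 others carry a lower number and 19 belong to the let-7 family. The counts came from small RNA sequencing of the lumbar enlargement of the spinal cord on day 14, on the side of the injected leg and with the meninges removed. Rats of the bone cancer pain (BCP) group, 3 animals, received living Walker 256 rat breast carcinoma cells in the marrow cavity of the left tibia. The 3 sham rats received heat-killed cells of the same kind by the same route. The labels give the strain as Wistar, the study's methods give female Sprague Dawley rats, and neither gives the age. The animals carried no genetic modification, and each library came from 1 labelled sample. The sham group received tumor cell material and bone surgery too, so BCP and sham rats differ in living against dead cells.

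A miRNA is cut from a hairpin by the nucleases Drosha and Dicer, and 1 of the hairpin's arms, named 5p or 3p, is usually kept in an Argonaute protein. Bases 2 to 8 of the kept strand, the seed, pair with target mRNAs. The names follow roughly the order in which sequences entered the miRBase catalogue, so that a high number mostly marks a miRNA found late, when deep sequencing had made rare small RNAs visible. Some late entries lie on the opposite strand of an older hairpin, because the complement of a hairpin can also fold.

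The mature sequences of the members that lead the results below are shown as RNA, 5′ to 3′, with the seed in capitals. They are the 6 most abundant members, the arm pair of miR-3559, and the members with the lowest p-values in the group comparison, and were read from the RefSeq annotation of the GRCr8 build.
miR-3068-3p: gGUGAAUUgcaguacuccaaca
miR-3099: uAGGCUAGaaagagguugggga
miR-6331: cUUUGGUGgcuuaguucuuugugc
miR-3085: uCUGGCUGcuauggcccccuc
miR-3547: uGAGCACCaccccucucucagau
miR-3068-5p: uUGGAGUUcaugcaaguucuaacca
miR-3559-3p: aUGUAGUAcugagucugucgug
miR-3559-5p: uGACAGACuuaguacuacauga
miR-6216: gAUACACAgaggcaggaggagaa
miR-3594-3p: cACACCGCcucugcccgcuagu
miR-3594-5p: cCCAGGGCagagcagugugaa
miR-6329: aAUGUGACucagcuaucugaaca

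None of these seeds was shared with another of the miRNAs listed in the table and found in RefSeq. In GRCr8, miR-6216 lies at chr3:65165595-65165617 on the minus strand, outside the annotated gene bodies. miR-3594-3p lies at chr10:105845832-105845853 on the minus strand, inside the gene body of Cep131, which encodes a protein of the centrosome and cilium base. miR-3068-3p lies at chr6:112811880-112811901 on the minus strand, inside Alkbh1, which encodes a nucleic acid demethylase. Exons and introns could not be told apart in the gene table used, and the study mapped its reads to another build, Rnor_6.0.

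Fewer than 6 in 10 late-numbered miRNAs had any read. At least 1 count in some library was found for 64 of the 113 (56.6%), 40 (35.4%) had a count in every library, and 49 were listed at 0 throughout. Among the 621 lower-numbered miRNAs, 521 (83.9%) had a count and 452 a count in every library. A row listed at 0 is not evidence of absence here, since the same table lists at 0 such widely expressed miRNAs as miR-21-5p.

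Detection of at least 1 count did not fall steadily with the number. It was 88% of 100 miRNAs numbered below 100, 84.3% of 383 from 100 to below 500, 82.0% of 111 from 500 to below 1000 and 70.4% of 27 from 1000 to below 3000. Of 21 members numbered from 3000 to below 3500, 20 (95.2%) had a count. Of 66 from 3500 to below 4000, 28 (42.4%) had one, and of 26 numbered 4000 and above 16 (61.5%). Of the 49 members listed at 0, 38 were numbered from 3500 to below 4000. The share past the filter on low counts fell more steadily, with 75%, 68.4%, 56.8% and 48.1% in the same ranges below 3000. It was 42.9% from 3000 to below 3500, 15.2% from 3500 to below 4000 and 34.6% at 4000 and above. Around the number 3000 itself, the members miR-3064-5p and miR-3064-3p had mean levels of 0.313 and 0.144 CPM (counts scaled to a library total of 1000000), and miR-3065-5p and miR-3065-3p of 0.0219 and 0.0355 CPM. Below it, miR-2985 had 0.137 CPM, miR-1956-5p 0.104 CPM, and miR-1956-3p was listed at 0.

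**Figure D1:**
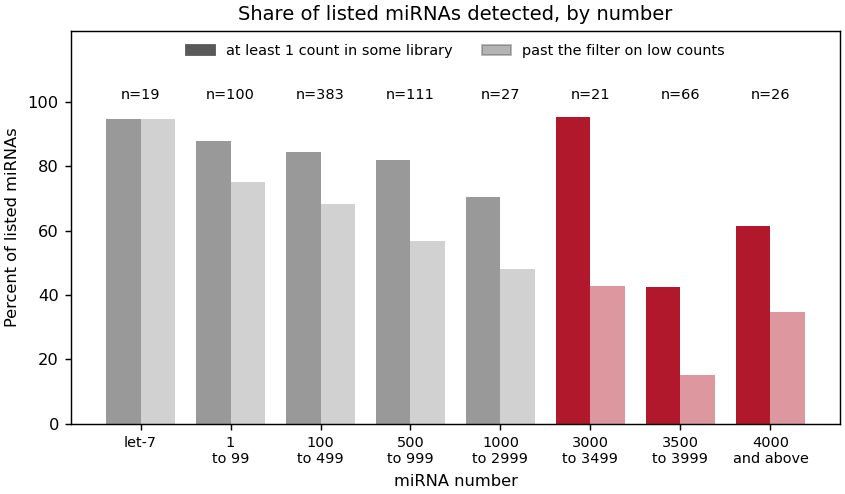
Percent of listed miRNAs (y axis) by miRNA number (x axis), with full bars for at least 1 count in some library and pale bars for miRNAs past the filter on low counts. Numbers below 3000 are grey and numbers from 3000 are red, and the 66 miRNAs numbered from 3500 to below 4000 have the shortest bars, 42.4% and 15.2%.

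Levels are CPM after scaling of the libraries by edgeR's TMM factors. A read covers the whole of a mature miRNA, so CPM of different miRNAs needs no correction for length, but how well each sequence ligates to the adapters was not tested. The median level of the detected members was 0.315 CPM (quartiles 0.0944 and 2.2), against 23.3 CPM (1.20 and 233) for detected lower-numbered miRNAs. A count of 3 in 1 library, taken as the floor, equals 0.127 to 0.221 CPM in the 6 libraries, so the median member lies just above it. Only 1 member, miR-3068-3p, averaged over 100 CPM, against 177 (28.5%) of the lower-numbered miRNAs, and it ranked 177 of all. The members together held 46069 of 97091691 counts, or 0.0474%.

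A few members carried nearly all of those counts. miR-3068-3p alone had 26.8% of the members' counts, the 10 most abundant members had 91.0%, and the 28 that passed the filter on low counts had 98.8%. The 36 other detected members shared what remained.

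**Figure D2:**
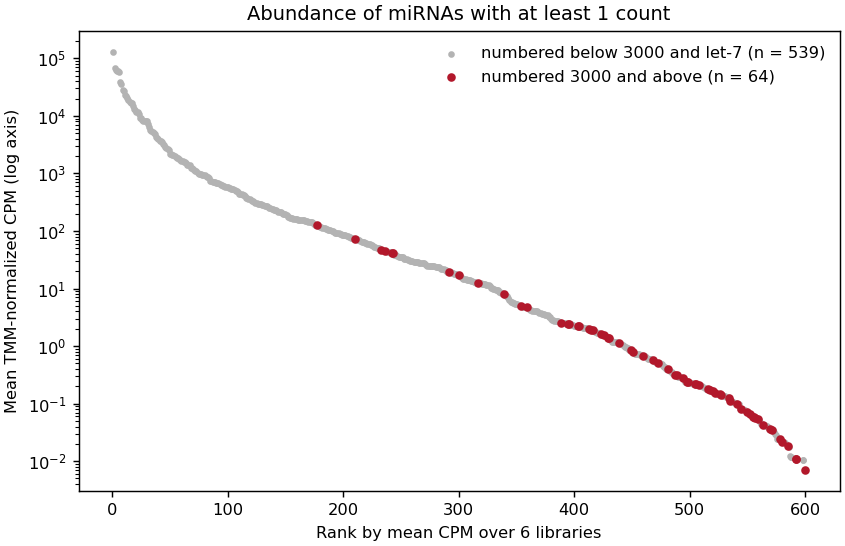
Mean CPM over the 6 libraries (y axis, log scale) against rank (x axis) for the 603 miRNAs with at least 1 count, with the 64 late-numbered ones in red and all others in grey. The first red point is miR-3068-3p at rank 177, and most red points lie below 3 CPM.

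The share of each library taken by the members was much the same in both groups. In BCP rats it was 0.0465% (95% exact binomial interval 0.0457 to 0.0474), 0.0464% (0.0453 to 0.0476) and 0.0471% (0.0460 to 0.0481) of all miRNA counts. In sham rats it was 0.0463% (0.0452 to 0.0474), 0.0469% (0.0458 to 0.0480) and 0.0522% (0.0510 to 0.0534). Sham rat 3 was the highest, and the other 5 libraries lay close together. The means were 0.0467% ± 0.000347 (SD, n = 3) in BCP and 0.0485% ± 0.00327 in sham, and the difference was within the spread (two-sided exact permutation p = 0.7, where 0.1 is the smallest possible with 3 against 3). Without sham rat 3 the difference of -0.00181 percentage points became 7.12e-05. The intervals cover counting error only. The number of members with a count was 46 to 55 per library.

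The most abundant members differed in how evenly they were spread over the rats. miR-3068-3p had 115, 147 and 146 CPM in BCP rats 1 to 3 and 116, 96.9 and 150 CPM in sham rats 1 to 3. The groups overlapped fully, and the lowest value was in sham rat 2 and the highest in sham rat 3. Its other arm, miR-3068-5p, had 30.5, 43.5 and 47.4 CPM in BCP and 36.1, 32.9 and 55.3 CPM in sham. Sham rat 3 was again the highest, while the lowest 5p value was in BCP rat 1.

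The next members in order lacked an arm suffix, which means that the table lists 1 mature product for the hairpin. miR-3099 had 76.2, 61.4 and 66.3 CPM in BCP and 75.9, 90.4 and 67.5 CPM in sham. miR-6331 had 52.1, 43.0 and 44.2 CPM in BCP and 50.2, 52.0 and 41.7 CPM in sham. In both the groups overlapped. In GRCr8, miR-6331 lies on the same strand and within 10000 bases of miR-382, miR-134 and miR-154, which belong to the large imprinted Dlk1-Dio3 miRNA cluster, known for its expression in neurons.

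miR-3085 had 45.9, 40.1 and 40.3 CPM in BCP and 50.4, 48.1 and 44.6 CPM in sham, so that only BCP rat 1 reached the sham range. miR-3547, inside the gene body of Baiap3, a gene of vesicle trafficking, had 45.3, 33.4 and 38.5 CPM in BCP and 43.6, 48.9 and 42.9 CPM in sham. Again only BCP rat 1 reached the sham range. Mean levels of miR-6331, miR-3085 and miR-3547 were 46.4 ± 4.93, 42.1 ± 3.30 and 39.0 ± 5.99 CPM in BCP (SD, n = 3) and 48.0 ± 5.48, 47.7 ± 2.91 and 45.1 ± 3.25 CPM in sham. The order of these means was the same in each BCP rat but not in every sham rat, where miR-3085 exceeded miR-6331 in rats 1 and 3 and miR-3547 exceeded miR-3085 in rat 2.

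miR-3552 had 17.7, 14.4 and 14.3 CPM in BCP and 20.9, 17.3 and 16.9 CPM in sham, with BCP rat 1 inside the sham range. It lies in the gene body of Htr2c, the serotonin 2C receptor, which also holds miR-764 and miR-1912. Of these neighbours miR-764-5p averaged 11.4 CPM, and both arms of miR-1912 were listed at 0. miR-3102, in Arhgef17, had 13.1, 7.81 and 10.1 CPM in BCP and 15.7, 16.8 and 10.4 CPM in sham, and its groups overlapped through BCP rat 1 as well.

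**Figure D3:**
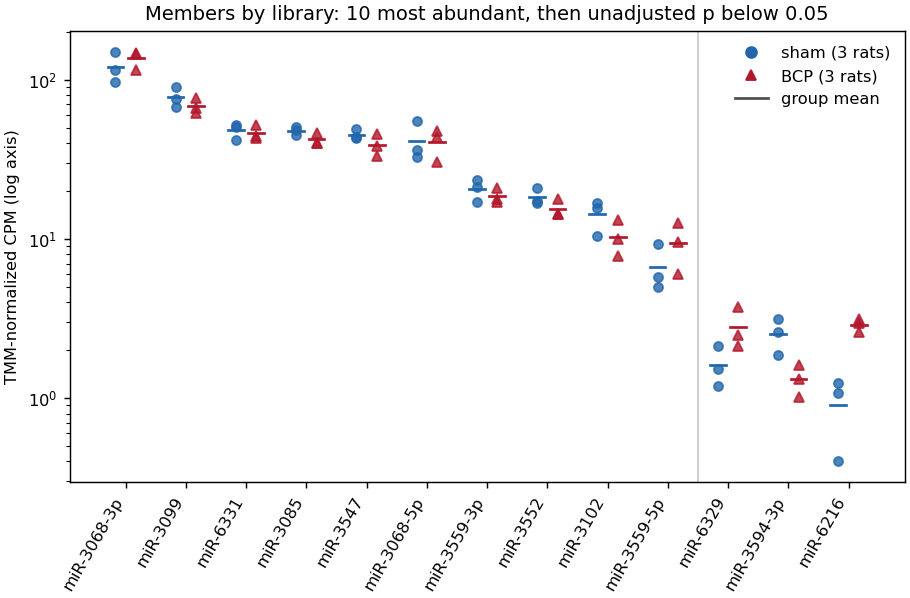
TMM-normalized CPM (y axis, log scale) in each rat for the 10 most abundant members and, right of the grey line, the 3 with unadjusted p below 0.05 (sham as blue circles, BCP as red triangles, lines for group means). miR-6216 and miR-3594-3p are the members shown whose groups do not overlap.

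Both arms were listed for 21 of the late hairpins, giving 42 of the members, while 71 members had no arm suffix. Both arms had counts in 13 hairpins, 1 arm was at 0 in 4, and both were at 0 in 4. Only 3 hairpins had at least 20 counts over both arms in every library, and none of them had an arm with 90% or more of the counts. Of 198 lower-numbered hairpins with that depth, 127 (64.1%) had such an arm. The late-numbered count rests on where the minimum falls. miR-3583 missed it by 1 count, with 19 in its shallowest library. Its 3p arm took 90.1% as a mean over the 6 libraries, with 161 counts against 17 in total. miR-3084c, with 14 in its shallowest library, had all of its 131 counts from the 5p arm.

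In all 3 the 3p arm was the more abundant. miR-3068-3p took 75.9% of the counts of its hairpin, miR-3559-3p 71.0% and miR-3594-3p 68.9%, as means over the 6 libraries. The 5p share of miR-3068 was 21%, 22.8% and 24.5% in BCP and 23.8%, 25.3% and 27.0% in sham, a narrow range with overlap. The 5p share of miR-3559 was 22.5%, 36.1% and 41.4% in BCP and 19.8%, 19.1% and 35.1% in sham. The arms of miR-3559, which lies in the palmitoyltransferase gene Zdhhc15, thus varied between rats of 1 group more than between the groups. The 5p share of miR-3594 was 29.6%, 35.7% and 33.3% in BCP and 21.7%, 31.4% and 34.9% in sham.

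None of the 3 shares gave a p below 0.2, and the smallest possible with 3 against 3 rats is 0.1, so the test cannot show whether the shares differ. The means in BCP and sham were 22.8% ± 1.77 and 25.4% ± 1.59 for miR-3068, with a two-sided exact permutation p of 0.2 (n = 3). This difference of -2.59 percentage points was larger than either SD, although the groups overlapped. The means were 33.3% ± 9.74 and 24.7% ± 9.05 for miR-3559 (exact permutation p = 0.2) and 32.9% ± 3.07 and 29.4% ± 6.81 for miR-3594 (exact permutation p = 0.6). Adjusted over the 3, the p-values were 0.3, 0.3 and 0.6 in the same exact permutation test.

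The miR-3084 group, with 7 members, holds close copies. miR-3084a-3p and miR-3084d have 1 and the same mature sequence in RefSeq, where miR-3084d lies inside the gene body of Usp15, which encodes a ubiquitin-specific protease. miR-3084a-5p, given by 2 loci with different ends, shares its seed with miR-3084c-5p.
miR-3084a-3p: uUCUGCCAguccccuucagaca
miR-3084d: uUCUGCCAguccccuucagaca
miR-3084c-5p: gUUGAAGGuuaauuagcagag
The table gives 50 counts to miR-3084a-3p and 23 to miR-3084d, which cannot be told apart by sequence. The 5p arms had 30 counts for miR-3084a and 131 for miR-3084c. The other shared seeds were shared with lower-numbered miRNAs, all by members with at most 2 counts in total: miR-3065-5p (shared with miR-7a-1-3p), miR-3573-5p (with miR-423-5p), miR-3084c-3p (with miR-192-3p) and miR-3596d (with the 3p arms of let-7a-1, let-7b, let-7c-2 and let-7f-1, and with miR-98-3p).

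At least 26 of the 49 members listed at 0 lay opposite an older hairpin. RefSeq held 100 of the 113 members, and 34 of these lay on the opposite strand of a lower-numbered or let-7 hairpin, overlapping it by at least 15 bases. Only 8 of the 34 (23.5%) had a count, against 49 of the 66 (74.2%) that faced no such hairpin. Of the 43 members at 0 with a RefSeq entry, 26 (60.5%) faced an older hairpin and 17 did not. In 33 of the 34 the mature sequences themselves overlapped by at least 15 bases, with exact complementary runs of 16 to 22 bases. The pairs below are 5 of the 6 with the most abundant partners, leaving out miR-3596b opposite let-7d-5p, since let-7 is shown by 2 others. Capitals mark the longest run of the member that pairs exactly with the partner, and the partner stands under it in lower case.
miR-3588: UCACAAGUUAGGGUCUCAGGGA
miR-125b-5p: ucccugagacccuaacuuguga
miR-3596d: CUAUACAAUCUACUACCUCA
let-7f-5p: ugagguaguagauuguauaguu
miR-3596a: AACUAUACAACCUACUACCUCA
let-7a-5p: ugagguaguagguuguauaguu
miR-3543: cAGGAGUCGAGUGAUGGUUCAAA
miR-434-3p: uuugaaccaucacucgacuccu
miR-3556a: CGAUUUCAGAUGGUGCUA
miR-29a-3p: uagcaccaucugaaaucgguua

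All 5 of these late members were listed at 0 in the 6 libraries, whereas their partners were among the most counted miRNAs. miR-125b-5p had 3732435 counts over the 6 libraries, let-7f-5p 2124092, let-7a-5p 1671894, miR-434-3p 883955 and miR-29a-3p 783719. The same held for miR-3596b opposite let-7d-5p (809761 counts) and miR-3596c opposite let-7e-5p (502055 counts). Of the 26 facing members at 0, 21 had a partner with over 1000 counts and 9 a partner with over 100000. In all, the 34 members had 367 counts and their partners 11606637. Some partners, such as let-7a-5p, let-7f-5p and miR-125b-5p, come from more than 1 hairpin, and the member faces only 1 of these. Their counts are not divided by hairpin, so they can exceed the output of the facing hairpin. The other arm of the hairpin facing miR-3596a, let-7a-2-3p, had 551 counts, against 14756 for let-7a-1-3p of another hairpin.

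The 8 facing members that were detected included 3 whose overlapping partner was listed at 0. miR-3120, in the gene body of Dnm3, a dynamin gene, had 52, 43 and 34 counts in BCP and 44, 39 and 31 in sham, while miR-214-5p on the other strand was at 0. Its mature sequence overlaps that of miR-214-5p by 1 base only, and miR-214-3p from the same hairpin had 167 counts. miR-3549 had 15, 11 and 8 counts in BCP and 9, 6 and 7 in sham, and both arms of miR-193a were at 0. Since miR-193a lies in the stretch of chromosome 10 described at the end, where 15 of 16 listed miRNAs were at 0, this pair gives no comparison of strands. miR-3546 had 3 counts and miR-208a-5p, from the heart myosin gene region, none. The other 5 were outnumbered by their partners. miR-3074 had 38 counts against 4314 of miR-24-1-5p, miR-3544 had 17 against 53543 of miR-337-5p, and miR-3065-3p had 3 against 545529 of miR-338-5p, a miRNA of oligodendrocytes. miR-3590-3p had 5 counts against 175 of miR-130a-5p, and miR-3065-5p had 2 against 2346 of miR-338-3p. None of these counts was compared between reads of the 2 strands directly, because the table holds no alignments.

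**Figure D4:**
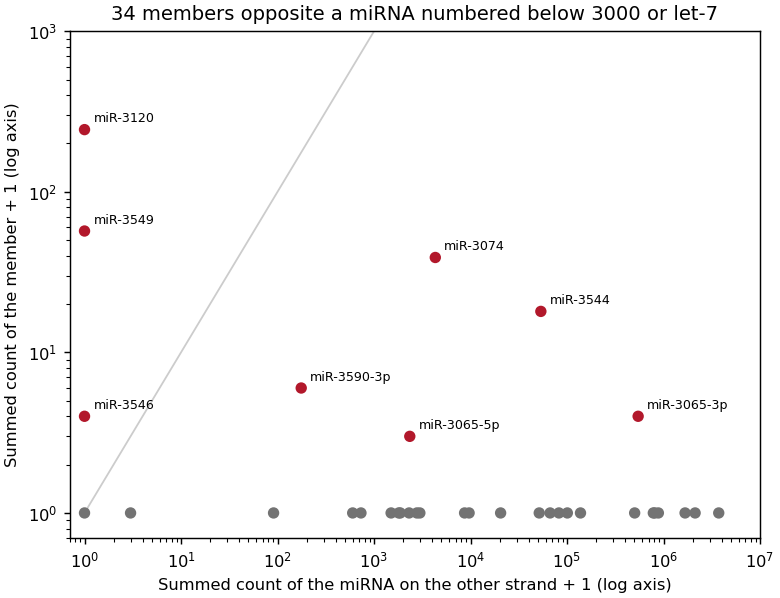
Summed count over the 6 libraries plus 1 (y axis, log scale) of the 34 members that face an older hairpin, against the same for the miRNA with the largest mature overlap on the other strand (x axis, log scale); the grey line marks equal counts. The 26 grey points at the bottom are members at 0, and the 8 red points are named.

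Mature length moved with detection as well, over the 99 members with 1 sequence in RefSeq. Of 17 members under 21 bases, 5 (29.4%) had a count, of 54 with 21 to 22 bases 33 (61.1%), and of 28 longer ones 18 (64.3%). In the lower-numbered miRNAs the counts were 34 of 63 (54.0%), 344 of 394 (87.3%) and 100 of 113 (88.5%). Among members facing no older hairpin they were 3 of 8, 29 of 34 (85.3%) and 16 of 23 (69.6%). At 21 to 22 bases the share with any count was thus close to that of lower-numbered miRNAs of the same length. With a count in every library the shares were 55.9% and 77.4%, and the median levels of those detected were 0.849 and 24.6 CPM. Among these members facing no older hairpin, 9 lay within 10000 bases of a lower-numbered miRNA on the same strand, and 6 of the 9 had a count. They included miR-3580 and miR-3585 of X-linked clusters known mainly from testis, with at most 12 counts an arm.

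The comparison of BCP with sham rats asks which spinal miRNAs differ with living tumor cells in the tibia. Of 459 miRNAs that passed the filter on low counts, 16 (3.49%) were called by the study's thresholds, a log2 fold change beyond 0.8 in either direction with adjusted p under 0.05, in edgeR's quasi-likelihood test with Benjamini-Hochberg adjustment. Of the 113 members 28 passed the filter, and 1 of these (3.57%), miR-6216, was called, a share near the background. In this tissue a change in the cells present and a change in RNA per cell cannot be told apart.

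miR-6216 was higher in BCP. It had 3.14, 2.95 and 2.59 CPM in BCP rats (74, 40 and 41 counts) and 1.08, 1.25 and 0.401 CPM in sham rats (15, 19 and 6 counts). The groups did not overlap, and sham rat 3 was the lowest. The means were 2.89 ± 0.277 and 0.911 ± 0.449 CPM (SD, n = 3), a log2 fold change of 1.67 ± 0.354 (SE), or 3.17-fold, with an adjusted p of 0.0393 in edgeR's test. The call was lost without BCP rat 1 (adjusted p = 0.0946), BCP rat 2 (0.151), BCP rat 3 (0.105) or sham rat 1 (0.136) in the same edgeR test, while the log2 fold change stayed between 1.28 and 1.97. It could not be tested where 10 counts in every library were required, since sham rat 3 had 6. No second arm of miR-6216 is listed, and its sequence of 23 bases is longer than the 21 to 22 bases by which the study's methods say known miRNAs were recognised.

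At an unadjusted p below 0.05 stood 60 of the 459 miRNAs (13.1%) and 3 of the 28 members, 2 higher (background 10.7%) and 1 lower (background 2.4%). miR-3594-3p had 1.61, 1.33 and 1.01 CPM in BCP (38, 18 and 16 counts) and 2.60, 3.16 and 1.87 CPM in sham (36, 48 and 28 counts). Every BCP rat was below every sham rat, and the log2 fold change was -0.93 ± 0.286 (SE), with an adjusted p of 0.147 in edgeR's test that missed the threshold. Its other arm, miR-3594-5p, had 0.679, 0.736 and 0.507 CPM in BCP and 0.721, 1.45 and 1.00 CPM in sham. These values overlapped, with a log2 fold change of -0.72 ± 0.345 and an adjusted p of 0.437 in edgeR's test. Without sham rat 2, the highest, the log2 fold change was -0.44.

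miR-6329, in the gene body of Rdx, which encodes the cytoskeletal linker radixin, had 2.12, 2.50 and 3.73 CPM in BCP and 1.51, 1.18 and 2.14 CPM in sham. Sham rat 3 and BCP rat 1 were nearly equal, and the log2 fold change of 0.78 ± 0.316 had an adjusted p of 0.327 in edgeR's test. It was 0.50 without BCP rat 3, the highest. The groups of 85 of the 459 miRNAs (18.5%) did not overlap in CPM, and this held for 3 of the 28 members, 2 higher (background 13.3%) and 1 lower (background 5.23%). The third was miR-6325, named after its values were seen. It had 2.71, 2.80 and 2.97 CPM in BCP and 1.30, 2.17 and 2.67 CPM in sham, with a log2 fold change of 0.46 and an adjusted p of 0.546 in edgeR's test.

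The median size of the log2 fold change, regardless of sign, was 0.24 in the tested members, 0.16 in all tested miRNAs and 0.16 in the lower-numbered ones. The members' log2 fold changes ran from -0.93 to 1.67, and 18 were below 0 and 10 above, with a median of -0.06. Over all 459 miRNAs 234 (51%) were below 0 and 225 (49%) above, with a median of -0.0034. Members numbered from 3500 to below 4000 had 9 of 10 values below 0, those from 3000 to below 3500 had 7 of 9 below 0, and those numbered 4000 and above had 7 of 9 above 0. No member was called lower by edgeR's quasi-likelihood test (0% of all miRNAs tested), and none by edgeR's exact test (0.436% of all), its likelihood ratio test (0.654%), DESeq2 (0%) or limma-voom (0%), while 1 had an unadjusted p below 0.05 in that direction. Of the 6 most abundant members, the log2 fold changes were 0.17 ± 0.184 (SE) for miR-3068-3p, -0.20 ± 0.150 for miR-3099, -0.05 ± 0.140 for miR-6331, -0.18 ± 0.121 for miR-3085, -0.21 ± 0.145 for miR-3547 and -0.04 ± 0.240 for miR-3068-5p. Leaving out 1 library moved these small values: miR-3068-3p ran from 0.03 without sham rat 2 to 0.32 without sham rat 3, miR-3099 from -0.32 without sham rat 3 to -0.08 without sham rat 2, and miR-3547 from -0.35 without BCP rat 1 to -0.11 without BCP rat 2. The values of miR-6331 and miR-3068-5p changed sign. The standard errors of the 28 ran from 0.121 for miR-3085 to 0.400 for miR-6328, which had 1.87, 2.83 and 0.802 CPM in sham rats 1 to 3.

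**Figure D5:**
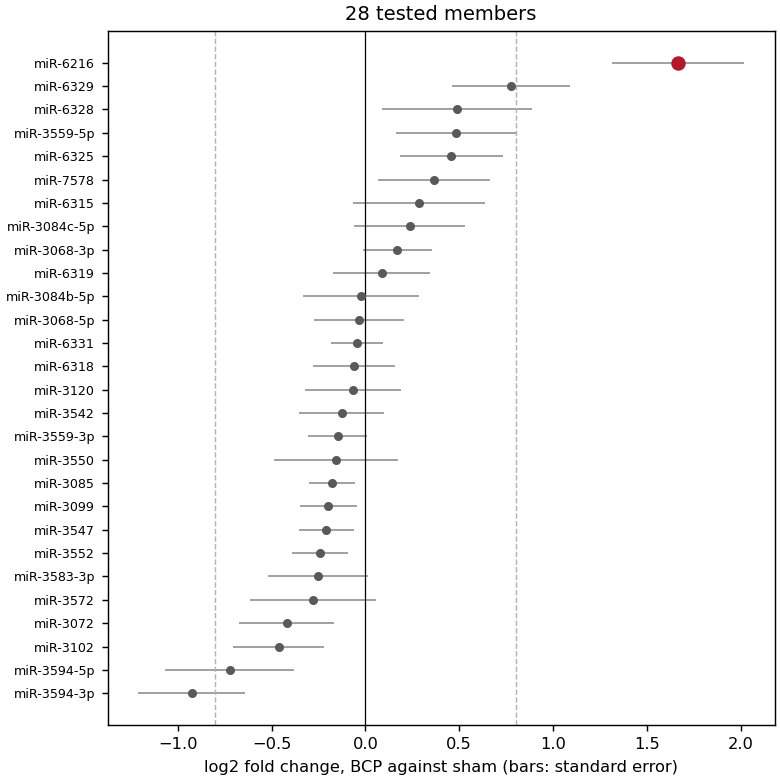
log2 fold change of BCP against sham (x axis) with its standard error for the 28 tested members (y axis), with dashed lines at the threshold of 0.8 in each direction. miR-6216, in red, is the 1 member called, at 1.67, and miR-3594-3p has the lowest value, -0.93.

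The base composition of the members correlated with the log2 ratio of libraries of 1 group to a degree that depended on the pair. Over the 25 tested members with a RefSeq sequence, r was -0.39 for sham rat 1 over 2, 0.45 for sham rat 1 over 3 and 0.63 for sham rat 2 over 3. It was 0.53 for BCP rat 1 over 2, 0.70 for BCP rat 1 over 3 and 0.25 for BCP rat 2 over 3. Over all 427 tested miRNAs with a sequence the values were -0.41, 0.40, 0.56, 0.51, 0.62 and 0.26 in the same order. These correlations are across miRNAs that share libraries. With the log2 fold change, r was -0.29 in the members and -0.27 in all. The GC content was 68.2% for miR-3594-3p, 61.9% for miR-3594-5p, 52.2% for miR-6216 and 39.1% for miR-6329, against a median of 52.2% of the tested members. The part of base composition in these differences was not tested.

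Across the whole table, libraries held 13464349 to 23770677 counts, with BCP rat 1 the deepest. The 3 listed neural markers (miR-124-3p, miR-128-3p and miR-138-5p) summed to 54200 to 70511 CPM, and all 3 oligodendrocyte and 4 HOX cluster markers had counts. Of other cell types, 3 of 4 erythroid markers were listed, all at 0. Of the 3 myeloid markers miR-142-5p and miR-142-3p were at 0, and miR-223-3p was at 5.57 to 7.93 CPM in BCP and 0.658 to 2.31 CPM in sham. The erythroid and myeloid markers at 0 lie in the stretch of chromosome 10 described at the end, where 15 of 16 listed miRNAs were at 0. Their zeros therefore do not show that these cells were absent. The 5 epithelial markers summed to 23 to 36.8 CPM in BCP and 12.7 to 14.8 CPM in sham, but its members did not all go the same way. Mean levels in BCP and sham were 11.6 and 3.73 CPM for miR-200c-3p, 16.6 and 7.08 CPM for miR-203a-3p, 0.901 and 0.633 CPM for miR-200a-3p, 0.200 and 0.0944 CPM for miR-141-3p, and 1.89 and 2.23 CPM for miR-200b-3p. The level of miR-223-3p and the epithelial sum were higher in BCP, as miR-6216 was, and their part in its difference was not tested. The 3 muscle markers summed to 82.7 to 106 CPM over all libraries and miR-122-5p of liver was at 3.08 to 11.2 CPM, with overlapping groups.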

How the data were processed

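Small RNA libraries (NEBNext kit, NovaSeq) of 3 BCP and 3 sham rats were analysed from the counts the authors deposited, raw read counts per known mature miRNA with no normalization. According to the methods, reads were trimmed and filtered with FASTX Toolkit 0.0.13, clean reads of 18 to 40 nucleotides were aligned with Bowtie2 2.2.3 to Rnor_6.0, and known miRNAs were recognised from miRBase 22.0 at 21 to 22 nucleotides. How reads matching several miRNAs were counted is not given in the sources used here. No column was left without a sample (0 columns).

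Tests across miRNAs were run with edgeR 4.0.16 under R 4.3.3 (filterByExpr with a minimum count of 10, TMM, quasi-likelihood test, all 6 libraries, Benjamini-Hochberg over 459 miRNAs), and the fit was tested on simulated data. DESeq2 1.42.0, limma 3.58.1, other filters and normalizations, and each library left out were alternatives. Exact permutation tests used scipy 1.17.1 in Python 3.11.15. With totals of 13464349 to 23770677 counts, 3 counts equal 0.127 to 0.221 CPM. The biological coefficient of variation was 16.9%, and no 2 libraries were copies (chi-square per degree of freedom 59.0 to 635). That labelled samples come from separate rats is taken from the methods.

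Sequences and strand positions came from RefSeq (GRCr8) by miRNA name, with 100 of 113 members matched. Hairpins on opposite strands had to overlap by 15 bases and cluster neighbours to lie within 10000 bases. Correlations with GC content used log2(CPM + 0.5). Named members were the 10 most abundant, those with unadjusted p below 0.05 or called under any alternative, arm pairs, members facing or sharing a seed with another miRNA, and those nearest to number 3000. The members and lists were chosen with earlier results of these data known.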

Additional observations from a re-analysis of the deposited data

How the results depend on the processing

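The number of members called, 1, was 0 where at least 10 counts in every library were required, overall and among those higher in BCP, because miR-6216 then left the test. With 1 library left out it ranged from 0 to 1, and it was 0 without BCP rat 1, BCP rat 2, BCP rat 3 or sham rat 1 (adjusted p 0.0402 to 0.151 over the 6 edgeR fits). The other settings kept miR-6216 called, with adjusted p from 6.17e-05 to 0.0453. With the replicate number as a block 1 member was called, as without it. Deviations from the group mean correlated at 0.109, -0.452 and 0.711 for same-numbered rats, and from -0.733 to 0.746 for the other pairs. With 3 rats a group, these correlations cannot show whether the numbers pair the samples. The median log2 fold change of tested members ran from -0.17, without BCP rat 1, to -0.0199, without BCP rat 3. With 1 library left out, the difference in the members' share of counts ran from -0.00291, without sham rat 1, to 7.12e-05, a reversal, without sham rat 3, and it was -0.00313 percentage points without the most abundant member, miR-3068-3p (exact permutation p = 0.2). Members detected were 40 with a count in every library, 30 with more than 3 and 24 with at least 10 in every library, and 61 to 64 with 1 library left out. With dominance at 75%, 1 member hairpin had a dominant arm. With miRNAs at 0 included, the median level was 0.0355 CPM for members and 8.55 CPM for lower-numbered miRNAs. Changes near 0 reversed with a library left out for miR-3084b-5p (0.043, 0.061, 0.020 and 0.0046; range -0.25 to 0.06), miR-3120 (0.0086, 0.019 and 0.069; range -0.25 to 0.07), miR-6331 (0.0081 and 0.011; range -0.17 to 0.01) and miR-3068-5p (0.12 and 0.20; range -0.19 to 0.20); the cause was not tested. The remaining 159 values of named members under other settings kept direction and side of the threshold. Counts of a few reads limit most members, since the floor of 3 counts lies near their median level.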

Other observations

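On chromosome 10, in the order of GRCr8, 16 listed miRNAs lie from miR-144-5p to miR-142-3p, a stretch whose bounds were set after the values were seen. Of these, 15 were listed at 0 in every library, among them both arms of miR-144, miR-451, miR-193a, miR-365, miR-21 and miR-142. These are miRNAs of red cells (miR-144 and miR-451), of blood cells in general (miR-142) and of many tissues (miR-21). The exception was the late-numbered miR-3549, on the strand opposite miR-193a, with 15, 11 and 8 counts in BCP and 9, 6 and 7 in sham. The other late-numbered miRNA there, miR-6327, was listed at 0. The cause was not tested.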
